A study of Rattus norvegicus with 12 samples.

Results

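The 9 genes described here mark the mural cells of blood vessels, that is, vascular smooth muscle cells and pericytes, and were chosen by symbol from the 32735 rows of the deposited table. Each symbol stood on 1 row. They were measured in punches of the left ventricle from 12 adult wild-type Groningen rats, with 1 library per animal: 6 unhandled controls (CTR) and 6 animals (RSD) that met a resident rat in social defeat sessions on 8 consecutive days. No transgene or drug is given for either group. The comparison asks how repeated social defeat alters gene expression in the heart.

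Mural cells wrap the endothelial tube. Smooth muscle cells form the contractile coat of arteries and arterioles, where actin and myosin filaments set vessel diameter, while pericytes sit on capillaries within the basement membrane and are recruited by platelet-derived growth factor from the endothelium. In the heart, pericytes are abundant along the dense capillary bed, and smooth muscle cells line the coronary branches. The contractile genes of smooth muscle are classical targets of serum response factor (SRF) and its coactivator myocardin, which act through a DNA element called the CArG box.

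The Acta2 promoter is shown because it carries close variants of that element. It is taken from RefSeq on build GRCr8, chr1:241172454-241172753, minus strand, and runs from 250 bases before the gene's start to 50 after. The submitters' processing notes name rn6, so these coordinates belong to the sequence only. Capitals mark the CArG-like matches.
Acta2 promoter: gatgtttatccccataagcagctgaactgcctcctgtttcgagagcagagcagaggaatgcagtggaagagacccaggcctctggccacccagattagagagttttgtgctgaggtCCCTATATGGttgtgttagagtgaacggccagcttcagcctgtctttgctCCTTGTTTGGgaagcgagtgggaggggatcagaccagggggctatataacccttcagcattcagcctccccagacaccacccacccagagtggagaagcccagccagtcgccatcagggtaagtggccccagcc
The search took CC and GG flanking 6 bases of which at most 1 was not A or T, a pattern that reads the same on both strands. Acta2 held 2 such matches, which begin 134 and 84 bases before the start, and 0 with all 6 bases A or T. Of 33469 rat promoters of the same length, 9.42% held the looser form and 1.64% the strict form. Promoters of 4 of the 9 genes were in the table, and those of Cnn1, Rgs5 and Cspg4 held neither form in this window.

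Libraries held 2062798 (RSD 33) to 3731108 (RSD 34) reads, and mitochondrial rows took 49.7% to 58.4% of them. RSD 40 is labelled female in a series described as male, yet it held 24 reads of the Y-linked Eif2s3y and 35 of the Y-linked Kdm5d, against 8 to 33 and 7 to 34 in the other libraries. It was kept, and values without it are given for Mcam, Rgs5 and Myh11, where leaving it out moved the unadjusted p across 0.05 or turned the sign. Cardiomyocyte markers summed to 39630 to 44768 normalised CPM (reads per library scaled to a common total) in CTR and 38312 to 43880 in RSD. Reads came from near the 3′ end of each transcript and were not divided by length, so levels are compared within a gene, not between genes.

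None of the 8 genes with enough reads passed the test between groups over all genes. Most of the tested markers nonetheless measured lower in the defeated rats: 7 of 8 had a log2 fold change below 0, against 49.3% of the 7511 genes tested, and their median was −0.44 against 0.00 for all tested genes. The markers were chosen with earlier results of these data known, so this contrast is a description. In the other fits that kept these 8 genes, 6 to 8 of them lay below 0, against 48.1% to 56.1% of all tested genes. The share of 56.1% was that of CPM as deposited, where all 8 lay below 0. The median of the markers was −0.21 without RSD 33, the shallowest library, and −0.14 with 1 surrogate variable (a covariate estimated from the expression values). Myl9 and Mcam had the smallest unadjusted p by limma, at about 0.72 and 0.74 times the control level on the log2(CPM + 1) scale. Rgs5 (0.73), Tagln (0.74) and Acta2 (0.74) had similar ratios with wider intervals, while Myh11 and Pdgfrb measured nearly the same in both groups. Cnn1 had too few reads for that fit. For a lower value in tissue punches, fewer mural cells, less RNA per mural cell and less RNA from other cells that make these genes cannot be told apart.

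By limma with Benjamini-Hochberg adjustment over all 7511 genes, 0 of the 8 tested markers passed adjusted p 0.05, where 0.0266% of all tested genes did. edgeR, DESeq2 and limma-voom also called 0. At an unadjusted p under 0.05 there were 2 of 8, both lower in RSD, against 8.36% of all tested genes in either direction and 4.47% in the lower direction. The groups overlapped for all 8, where 0.293% of tested genes had groups that did not overlap.

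**Figure D1:**
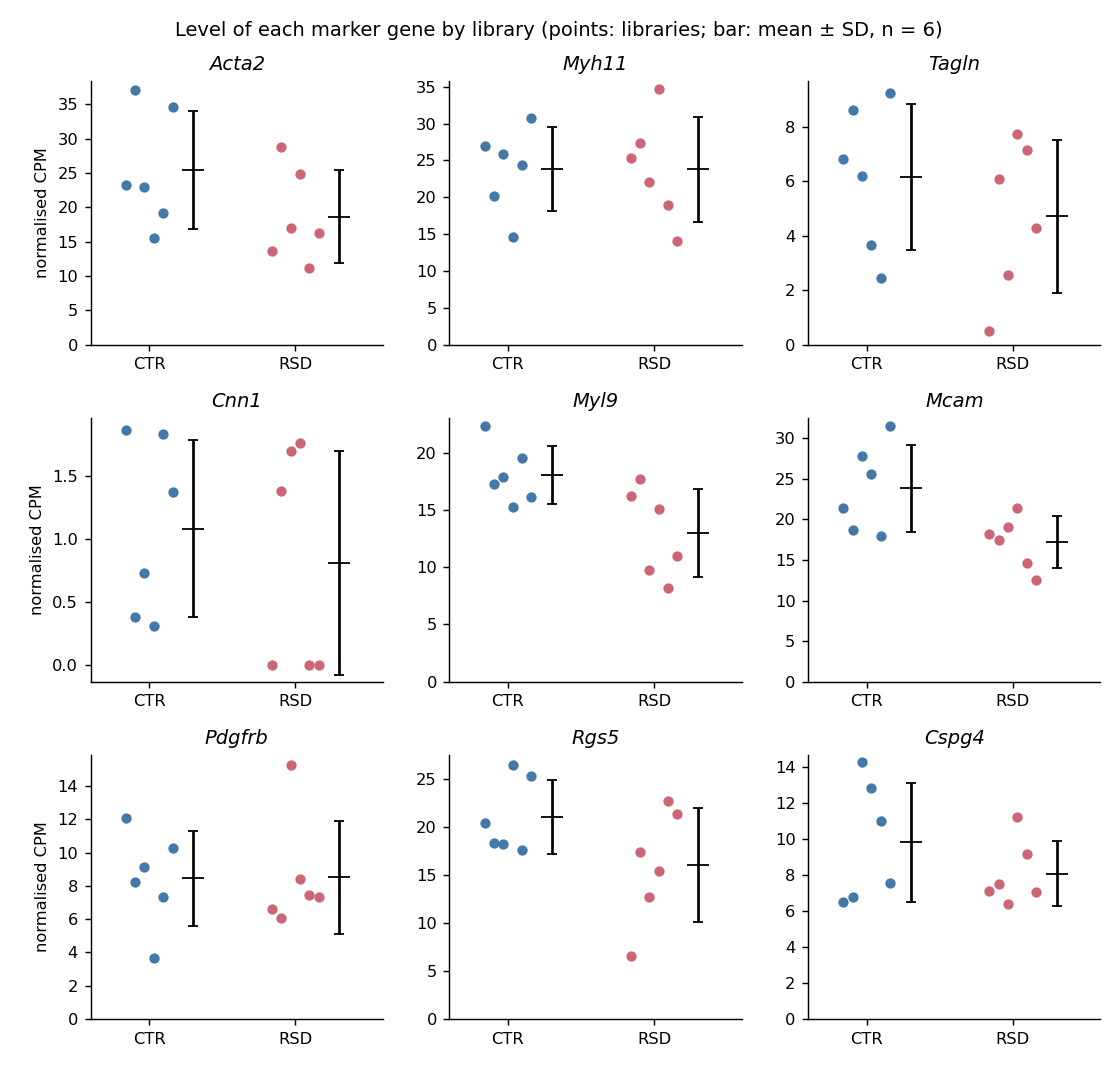
Normalised CPM (vertical axis) of each marker gene in the 6 CTR and 6 RSD libraries, 1 point per library, with the mean and SD beside them. For Mcam all 6 RSD points lie below the CTR median of 23.5, for Myl9 5 of 6 lie below 17.6, and for Myh11 the groups lie on the same range. The SD bar of Cnn1 reaches below 0, and 3 RSD libraries had no read of it.

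Of the contractile genes, Myl9 encodes a regulatory light chain of smooth muscle and nonmuscle myosin, whose phosphorylation starts contraction. Its level (ENSRNOG00000020246) had a lowest, median and highest value of 15.2, 17.6 and 22.3 normalised CPM in CTR and 8.15, 13.0 and 17.7 in RSD. RSD 35, RSD 39 and RSD 40 were the lowest libraries, RSD 38 also lay below the lowest control, by less than 1 read is worth, and RSD 33 and RSD 34 lay within the control range. Its mean of 18.04 ± 2.56 in CTR stood against 13.0 ± 3.87 in RSD (SD, n = 6), which gives −0.48 as log2 fold change (SE 0.20, 95% interval −0.88 to −0.08, limma adjusted p = 0.497). The unadjusted p was 0.0199 by limma and 0.0281 by an exact two-sided permutation test over 924 splits. Without RSD 35 or RSD 39 the limma p was 0.0502 and 0.0663.

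Acta2, smooth muscle α-actin, builds the thin filaments and is also made by activated fibroblasts. Its level (ENSRNOG00000058039) had a lowest, median and highest value of 15.5, 23.1 and 37.1 normalised CPM in CTR and 11.2, 16.6 and 28.8 in RSD. The highest libraries were CTR 23 and CTR 27, the lowest RSD 39 and RSD 33, and RSD 34 and RSD 38 lay above the control median. The log2 fold change was −0.44 (SE 0.22, 95% interval −0.88 to 0.01, limma adjusted p = 0.61), from 25.4 ± 8.57 to 18.6 ± 6.79 (SD, n = 6). Unadjusted, p was 0.0552 by limma and 0.141 by the exact permutation test. When single libraries were left out the limma p ran from 0.0141 (without RSD 34) to 0.163 (without CTR 23). It lay under 0.05 without CTR 25, CTR 26, RSD 34 or RSD 38 and above it without each of the other 8, and was 0.214 with 1 surrogate variable, where the log2 fold change was −0.30.

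Myh11, the smooth muscle myosin heavy chain, is the most specific contractile marker of the set. Its row (ENSRNOG00000057880) gave 14.6, 25.1 and 30.8 normalised CPM in CTR (lowest, median, highest) and 14.1, 23.7 and 34.7 in RSD. RSD 38 was the highest of the 12 libraries and RSD 40 the lowest, so the RSD libraries spanned the control range on both sides. The means were 23.8 ± 5.67 and 23.8 ± 7.15 (SD, n = 6), with −0.02 as log2 fold change (SE 0.20, limma adjusted p = 0.992). The 95% interval, −0.42 to 0.38, spans 0.747 to 1.30 times the control level, so the data are compatible with a change anywhere within those bounds. Its sign was positive with limma-voom (0.01) and without CTR 22, CTR 24, CTR 27, RSD 39 or RSD 40, where it reached 0.12.

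Tagln encodes transgelin (SM22α), an actin-binding protein that appears early in smooth muscle differentiation. It (ENSRNOG00000017628) rested on 195 reads in all, and measured 2.44, 6.51 and 9.24 normalised CPM in CTR (lowest, median, highest) and 0.502, 5.18 and 7.72 in RSD. RSD 33, the shallowest library, had a single read, 1 against 6 to 27 in the other 11. The log2 fold change was −0.44 (SE 0.37, 95% interval −1.19 to 0.31, limma adjusted p = 0.77), and −0.10 without RSD 33 and −0.21 with limma-voom. With 1 surrogate variable it was 0.01, so the direction for Tagln depends on the fit.

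Cnn1, calponin, an actin-binding inhibitor of myosin in smooth muscle, had 34 reads over the 12 libraries, too few for the filtered fit. It (ENSRNOG00000027736) had 1 to 6 reads in each control library and 4 or 5 in RSD 34, RSD 35 and RSD 38. RSD 33, RSD 39 and RSD 40 had 0 reads, which allows up to 1.45, 0.982 and 0.920 CPM (3 counts per library; counting error only). The control values, 0.309 to 1.86 normalised CPM, lie mostly around those limits. With no filter on low counts the log2 fold change was −0.29 (95% interval −0.99 to 0.40, limma adjusted p = 0.86), and an exact permutation test gave p = 0.444, so no difference was detectable at this depth.

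Of the genes of the cell surface and of signalling, Mcam (CD146) is an adhesion molecule of pericytes and smooth muscle that endothelial cells also carry. Its level (ENSRNOG00000007726) had a lowest, median and highest value of 17.97, 23.5 and 31.5 normalised CPM in CTR and 12.5, 17.8 and 21.4 in RSD. All 6 RSD libraries lay below the control median, 3 of them below the lowest control (CTR 26), and RSD 40 was the lowest of all. The log2 fold change was −0.44 (SE 0.18, 95% interval −0.80 to −0.08, limma adjusted p = 0.497), from 23.8 ± 5.35 to 17.2 ± 3.19 (SD, n = 6). Unadjusted, p was 0.0196 by limma and 0.0325 by the exact permutation test, and the limma p was 0.0655 without CTR 27 and 0.0607 without RSD 40. Without CTR 22 and RSD 40 together the log2 fold change was −0.38 for both Mcam (limma adjusted p = 0.36) and Myl9 (limma adjusted p = 0.435), and neither had an unadjusted p under 0.05. No other pair of libraries was left out together, so this fit does not show how other pairs behave.

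Rgs5, a GTPase-activating protein for G protein α subunits and a common marker of pericytes, measured 17.7, 19.4 and 26.5 normalised CPM in CTR (lowest, median, highest) and 6.58, 16.4 and 22.7 in RSD (ENSRNOG00000002730). RSD 33 was far below the rest, with 13 reads, while RSD 39 and RSD 40 lay above the control median. The log2 fold change was −0.45 (SE 0.22, 95% interval −0.90 to 0.00, limma adjusted p = 0.602), −0.23 without RSD 33 and −0.16 with 1 surrogate variable. Unadjusted, p was 0.0508 by limma and 0.106 by the exact permutation test, and by limma it ranged from 0.0188 without RSD 39 to 0.209 without RSD 33. It was under 0.05 without CTR 23, CTR 24, CTR 26, RSD 34, RSD 39 or RSD 40 (0.0237 without RSD 40), and 0.470 with 1 surrogate variable. RSD 39 and RSD 40, which were among the lowest libraries for Myl9 and Myh11, were the highest RSD libraries for Rgs5.

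Pdgfrb, the receptor through which platelet-derived growth factor recruits pericytes, is also made by fibroblasts. Its row (ENSRNOG00000018461) gave 3.66, 8.68 and 12.1 normalised CPM in CTR (lowest, median, highest) and 6.09, 7.405 and 15.3 in RSD. RSD 35 was the highest of all 12 and the other 5 RSD libraries lay below the control median. The log2 fold change was 0.02 (SE 0.26, 95% interval −0.51 to 0.55, limma adjusted p = 0.993). It was −0.15 without RSD 35 and −0.17 without CTR 25, the lowest control, and it was also below 0 in CPM as deposited (−0.01), so no direction holds for Pdgfrb.

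Cspg4 (NG2), a proteoglycan of the mural cell surface, measured 6.50, 9.24 and 14.2 normalised CPM in CTR (lowest, median, highest) and 6.36, 7.28 and 11.2 in RSD (ENSRNOG00000017208). The control libraries fell into 3 high values (CTR 24, CTR 25 and CTR 26) and 3 low ones, and the RSD libraries lay mostly at the level of the low ones. The log2 fold change was −0.22 (SE 0.23, 95% interval −0.69 to 0.26, limma adjusted p = 0.84). It was −0.11 without CTR 24, −0.13 without CTR 25 and −0.10 with 1 surrogate variable.

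**Figure D2:**
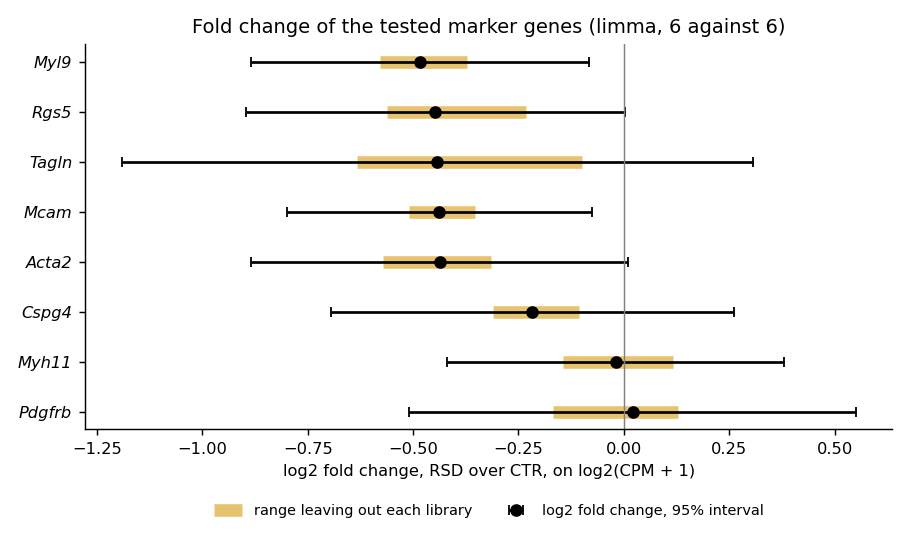
Log2 fold change of RSD over CTR on the log2(CPM + 1) scale (horizontal axis) for the 8 tested markers, with the 95% interval from limma as a line and the range over the fits that each leave out 1 library as a band. The intervals of Myl9 and Mcam end left of 0, at −0.08, and Myh11 (−0.02) and Pdgfrb (0.02) sit at 0.

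The spread between rats was set beside that of counting alone. For Myl9 the coefficient of variation among control rats was 14.2%, against 13.5% that counting this number of reads gives alone. For Acta2 it was 33.7% against 11.5%, for Mcam 22.5% against 11.8%, and for Tagln 43.6% against 23.5%. In RSD the spread of Rgs5 was 37.0% against 14.5%, and that of Myl9 29.8% against 16.4%.

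Whether the markers differed from one another in their response was compared with the log2 ratio of each pair within a library, a measure that the scaling of libraries hardly moves, over 28 pairs by exact two-sided permutation. These ratios were chosen after the levels had been seen. The log2 ratio of Myh11 to Mcam was −0.01 ± 0.42 in CTR against 0.41 ± 0.21 in RSD (SD, n = 6), with exact permutation p = 0.0368 and adjusted p = 0.515. The log2 ratio of Myh11 to Myl9 was 0.36 ± 0.32 against 0.82 ± 0.35, with the same exact permutation p of 0.0368 and adjusted p of 0.515. These were the 2 pairs with an unadjusted p under 0.05, and 0 of 28 passed after adjustment. A difference in response between any 2 markers was therefore not detectable in these libraries.

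Each library was placed by the mean standardised level of its contractile markers (Acta2, Myh11, Tagln, Myl9) and of its surface and signalling markers (Mcam, Pdgfrb, Rgs5, Cspg4), in SD units over the 12 libraries. RSD 33, RSD 35, RSD 39 and RSD 40 were low for the contractile genes, at −0.72, −0.75, −0.93 and −0.91. RSD 34 and RSD 38 stood at 0.62 and 0.69, within the range of the controls, of which 1, CTR 25, was low at −0.68. For the surface and signalling genes RSD 33 was lowest at −1.05 and CTR 24 highest at 0.88, while RSD 35, RSD 39 and RSD 40 stood at −0.06, −0.12 and −0.55. Summed over the contractile markers, Cnn1 included, levels were 49.3 to 92.1 normalised CPM in CTR and 45.5 to 84.2 in RSD, and over the surface and signalling markers 52.1 to 74.6 and 38.5 to 56.5.

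**Figure D3:**
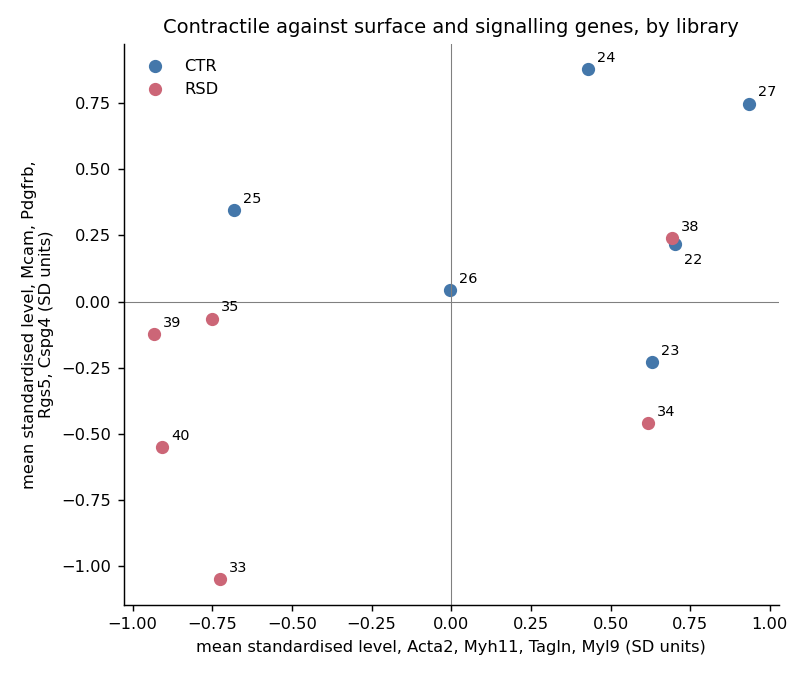
Mean standardised level of the contractile markers (horizontal axis, SD units) against that of the surface and signalling markers (vertical axis, SD units), 1 point per library, labelled with its number. RSD 33, 35, 39 and 40 lie on the left together with CTR 25 (−0.68), and RSD 38 lies beside CTR 22 on the right.

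Within groups, 0 of 28 pairs of markers varied together past the adjusted test, and the contractile pairs had the highest median. Over the 12 libraries, with each group's mean removed, 5 of 6 contractile pairs had a Pearson r above 0 (median 0.50), against 3 of 6 surface and signalling pairs (median 0.00) and 10 of 16 mixed pairs (median 0.06). Acta2 and Myh11 gave r = 0.55 (permutation p = 0.0794, adjusted p = 0.444 over 28 pairs; Spearman rho 0.58, permutation p = 0.0702, adjusted p = 0.611), and r = 0.71 without CTR 23 and RSD 34. Myh11 and Myl9 gave r = 0.58 (permutation p = 0.0710, adjusted p = 0.444; rho 0.66, permutation p = 0.0458, adjusted p = 0.611), and 0.60 without CTR 25 and RSD 40. The highest value, r = 0.71 for Tagln and Rgs5 (permutation p = 0.0336, adjusted p = 0.444; rho 0.55, permutation p = 0.0982, adjusted p = 0.611), fell to 0.20 without CTR 26 and RSD 33, so it rests on those libraries. A mixed pair, Myh11 and Mcam, gave r = 0.57 (permutation p = 0.0655, adjusted p = 0.444), and 0.70 without CTR 25 and RSD 40. Its rho was 0.62 (permutation p = 0.0415, adjusted p = 0.611). All these values rest on 1 to 104 reads per gene and library.

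**Figure D4:**
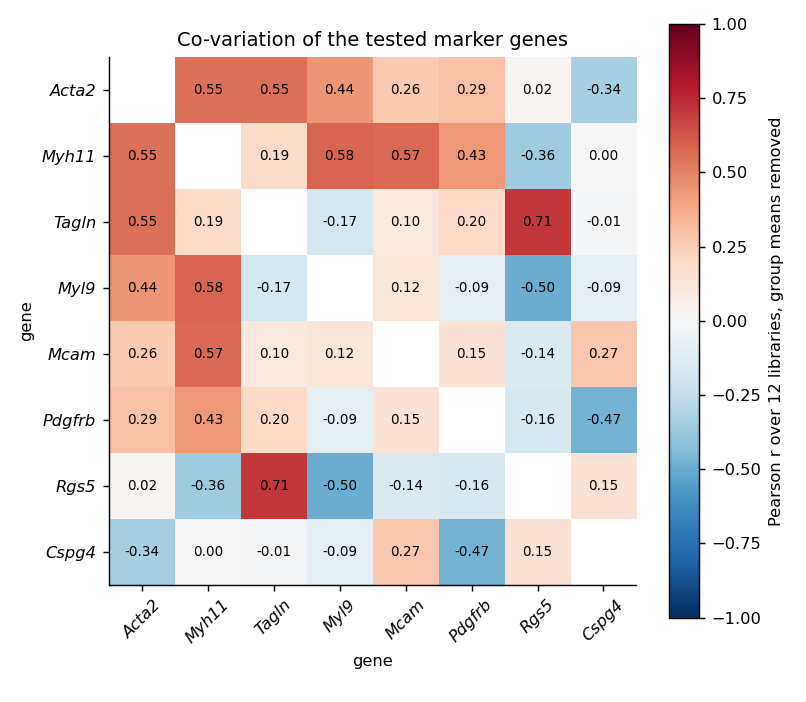
Pearson r between the tested markers over the 12 libraries after removal of each group's mean (colour and number). The upper left block of contractile genes runs from −0.17 (Tagln with Myl9) to 0.58 (Myh11 with Myl9), the lower right block of surface and signalling genes from −0.47 to 0.27, and the mixed pairs from −0.50 to 0.71.

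The 5 genes whose pattern over the 12 libraries was most like the mean of the 8 markers were chosen out of 7111 by Pearson r with group means removed, as a description with no test. Dut, which encodes dUTPase, had r = 0.88 (rho 0.94; 0.80 without the 2 libraries farthest from the median). Dopey2 had 0.86, Cdk5rap2, a centrosome protein, 0.84, Aida 0.82 and Rps4y2 0.82. Their values in these libraries share the depth and scaling of the markers. Dut itself stood at 13.1 ± 2.31 normalised CPM in CTR against 11.97 ± 1.81 in RSD (SD, n = 6; limma adjusted p = 0.902).

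Other genes of the same pathways, in lists put together with earlier results of these data known, gave 0 calls over all genes in limma. Of 13 tested genes of smooth muscle contraction beyond the 9, 6 lay below 0, the median was 0.00, and 0 had an unadjusted p under 0.05. Of all tested genes, 49.3% lay below 0 and 8.36% had such a p. Pln (mean 2926 normalised CPM in CTR) and Des (893) were the highest of them. The part of cardiomyocytes in the values of this list was not tested. Ppp1r14a, an inhibitor of myosin phosphatase, had a log2 fold change of 0.58, Ppp1r12b, a myosin phosphatase subunit, of 0.21, and Csrp1, a LIM protein, of −0.18.

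Of 11 tested regulators around SRF and myocardin, 8 lay below 0 (median −0.15), against 49.3% of all tested genes. An unadjusted p under 0.05 was found for 2, both lower, against 4.47% of all tested genes in that direction. Srf had 29.5 ± 8.14 normalised CPM in CTR against 19.7 ± 5.87 in RSD (SD, n = 6), which is −0.56 on the log2 scale (SE 0.20, limma adjusted p = 0.458). Foxo4, a forkhead factor that represses myocardin activity, had −0.36 (limma adjusted p = 0.496). Myocd, myocardin itself, stood the other way at 0.39 (limma adjusted p = 0.618), from 12.03 ± 2.95 to 15.96 ± 3.23.

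Of 13 tested pericyte genes beyond the 9, 5 lay below 0, against 49.3% of all tested genes, with a median of 0.10. Only 1 had an unadjusted p under 0.05, against 8.36% of all tested genes. That was Vtn, vitronectin, an adhesive plasma and matrix protein, with a log2 fold change of −0.42 (limma adjusted p = 0.539). Kcnj8, the pore of the ATP-sensitive potassium channel of pericytes, had 0.41 (limma adjusted p = 0.618), and Gucy1a3, a subunit of the nitric oxide receptor, 0.30. Higd1b (−0.28) and Gja4 (−0.17) lay below 0 and Colec11 (0.41) and Gucy1b3 (0.27) above it, so the list held values of both signs. Of the surface and signalling markers, 3 of 4 lay below 0, with a median of −0.33.

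Tested genes of pathways that act between endothelium and mural cells lay mostly above 0. The list of 25 genes, of which 17 were tested, holds receptors as well as ligands. Of these 17 genes of platelet-derived growth factor, Notch, angiopoietin and transforming growth factor-β (TGF-β) signalling, 16 had a positive log2 fold change. Their median was 0.15, and 50.7% of all tested genes were positive. Among the 16, Acvrl1 (0.006), Tgfb3 (0.01), Pdgfa (0.01) and Tie1 (0.01) lay close to 0. The 2 with an unadjusted p under 0.05 were both higher: Eng, a TGF-β coreceptor of endothelium, at 33.6 ± 2.91 and 45.9 ± 9.46 normalised CPM (SD, n = 6; limma adjusted p = 0.433), and Tek, the angiopoietin receptor, at 16.2 ± 3.74 and 22.6 ± 2.07 (limma adjusted p = 0.458). Tgfb2, a TGF-β ligand, had a log2 fold change of 0.36. Of 12 tested genes of vascular tone, 6 lay below 0 (median 0.00), and 2 had an unadjusted p under 0.05. For both lists, the share of all tested genes under it was 8.36%. Rhoa, the GTPase that sensitises smooth muscle to calcium, had −0.53 (limma adjusted p = 0.363), Itpr1, a calcium release channel, 0.48, and Rgs4, a relative of Rgs5, −0.40.

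**Figure D5:**
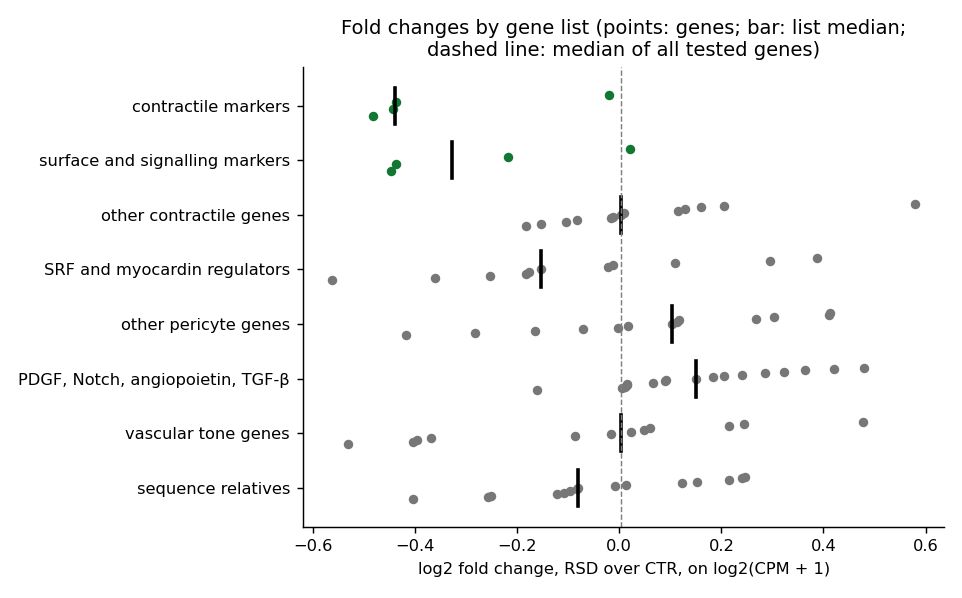
Log2 fold change of RSD over CTR on the log2(CPM + 1) scale (horizontal axis) for each tested gene of 8 lists (points), with the list median as a bar. The bars of the 2 marker groups lie at −0.44 and −0.33, that of the other contractile genes at 0.00, and that of PDGF, Notch, angiopoietin and TGF-β signalling at 0.15.

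Genes close in sequence to the markers gave no call either, with 9 of 15 tested below 0, against 49.3% of all tested genes, and a median of −0.08. Actc1, cardiac α-actin, nearly identical to Acta2 in protein, was read at 8982 ± 1569 and 8879 ± 1115 normalised CPM (SD, n = 6; log2 fold change −0.01). Whether any reads of 1 actin gene were assigned to another was not tested, so the level of Acta2 is uncertain to that extent. Myl12a, a light chain gene close to Myl9, had −0.26 and Cnn3, a calponin gene, −0.25. Actg1 and Myh9, cytoskeletal genes used by nearly every cell type, were listed at 0 in all 12 libraries, as were Cnn2 and Tagln3. A low or zero value in this table, including that of Cnn1, is therefore given only as listed.

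Markers of other cell types were summed per library. For the counts below, 49.3% of all tested genes had a log2 fold change below 0. Endothelial markers (11 tested, 4 below 0, median 0.09) summed to 341 to 409 normalised CPM in CTR and 364 to 441 in RSD. Fibroblast markers (7 tested, 6 below 0, median −0.09) summed to 1045 to 1341 and 1031 to 1112. Col3a1, a fibrillar collagen, was at −0.38 (limma adjusted p = 0.388) and Gsn, gelsolin, at −0.28 (limma adjusted p = 0.517). These were the 2 with an unadjusted p under 0.05, both lower, against 8.36% of all tested genes in either direction and 4.47% lower. The 2 endothelial markers under it, both higher, were Eng and Tek, the same genes as in the signalling list above. Esam (−0.27) was 1 of the 4 endothelial markers below 0. Of the activated fibroblast markers 2 of 8 had enough reads to be tested, Col8a1 (−0.23) and Fn1 (−0.28), Cthrc1 was listed at 0, and the sums were 23.7 to 36.9 and 16.1 to 34.0. Macrophage markers (7 tested, 5 below 0, median −0.10) summed to 81.2 to 170 and 83.0 to 115. Schwann cell markers (0 tested) summed to 2.43 to 8.05 and 0.918 to 4.66, and adipocyte markers (1 tested) to 7.12 to 13.5 and 5.52 to 14.4. Atrial markers (4 tested, 0 below 0, median 0.39) summed to 131 to 260 and 109 to 494, with RSD 38 the highest. Bmp10 was listed at 0 in all 12 libraries, as Actg1 and Myh9 were, while the mean of Myl4 was 18.6 ± 7.38 normalised CPM for controls and 28.7 ± 12.4 for RSD (SD, n = 6). Red blood cell markers, with 6 of 7 tested above 0, ran from 2419 to 13857 and from 2450 to 26973. The part of these in the values of the mural markers was not tested.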

How the data were processed

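The authors deposited 1 table of 32735 genes with values in CPM per library. Per the labels' protocols, libraries were made from 100 ng of total RNA with a 3′ end kit (QuantSeq forward). STAR 2.6.0a, HTSeq 0.9.1, DESeq2, bcl2fastq and rn6 are named, without roles, per the submitters' processing notes; an annotation release was not given in the sources used here. Low values were whole multiples of 1 step per library (0.268 to 0.485 CPM), from which 100% of values came out as whole reads within 0.1 read.

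Genes were kept by filterByExpr (minimum count 10) on these reads. CPM were divided by TMM factors (0.914 to 1.12; normalised CPM), and limma 3.58.1 (R 4.3.3) was fitted to log2(CPM + 1) with an intensity trend over 7511 genes, two-sided, with Benjamini-Hochberg adjustment. Fold changes on this scale understate the change of low genes. In data simulated with the same spread for every gene, limma recovered 26.0% of genes changed 1.5-fold, 89.6% changed 2-fold and 100% changed 3-fold. False calls numbered 2, 11 and 4. The coefficient of variation of the markers differed from gene to gene (in CTR 14.2% for Myl9, 33.7% for Acta2 and 43.6% for Tagln). These shares therefore do not give the recovery of any 1 marker. Alternatives included edgeR 4.0.16, DESeq2 1.42.0, limma-voom and sva 3.50.0 on the recovered reads or values. Single genes were also compared by exact permutation, and correlations by permutation within groups.

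The members and lists were chosen with earlier results of these data known. Genes named are the 9 markers, up to 3 genes per list with the smallest p, and the 5 most alike in pattern. Genes listed at 0, Actc1, Bmp10, Higd1b, Gja4, Colec11, Gucy1b3, Acvrl1, Tgfb3, Pdgfa, Tie1, Pln and Des were added after their values were seen. The labels do not say whether rats shared a cage or a day, and intervals cover the spread between rats, or counting error only where so stated.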

Additional observations from a re-analysis of the deposited data

Results flagged for a closer look

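A library far from the other 5 of its group was found in 4 of 138 sets of 6 values, and chance alone flags about 1 set in 20. Divided by the range of the 6 values, the distance to the next library was 0.746 for Pdgfrb in RSD 35 (15.3 normalised CPM, next 8.42), 0.773 for Myl4 in CTR 25 (33.2, next 17.6), 0.662 for Myl7 in CTR 26 (11.3, next 7.497) and 0.733 for the summed macrophage markers in CTR 24 (170, next 105). Myl4 and Myl7 are atrial myosin light chain genes.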

How the results depend on the processing

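No paired analysis was possible because the groups share no replicate numbers. The count of markers past adjusted p 0.05 was 0 in every fit run. The count past unadjusted p 0.05 (2 of 8, against 8.36% of all tested genes) was 4 in CPM as deposited (8.28% of all). It was 1 with at least 50 reads in 6 libraries, a filter that left 4 of the 8 (9.67% of all). Without CTR 22 and RSD 40 it was 1 of 8, where 14.4% of all tested genes were under it. When single libraries were left out it was 1 to 4, against 5.85% (without CTR 24) to 13.0% (without CTR 22) of all. It was 1 without CTR 27 or RSD 35 and 4 without CTR 26 or RSD 34. The median log2 fold change of the markers (−0.44) was −0.14 with 1 surrogate variable and −0.48 to −0.21 without single libraries (−0.21 without RSD 33). Over all genes, the count past adjusted p 0.05 (2) was 0 with no filter, 1 with the 50-read filter, 0 with 1 surrogate variable, 55 without CTR 22 and RSD 40, and 0 to 41 without single libraries (41 without CTR 22); at unadjusted p (628) the counts were 953, 335, 368, 1083 and 449 to 994. Where the cause is not the number of genes or libraries, it was not tested. Signs turned for Pdgfrb in CPM as deposited (−0.014), with 1 surrogate variable (−0.0198) and without CTR 25, CTR 26 or RSD 35 (range over single libraries −0.17 to 0.13), for Tagln with 1 surrogate variable (0.0117), and for Myh11 with limma-voom (0.0145), without CTR 22 and RSD 40 (0.16) and without CTR 22, CTR 24, CTR 27, RSD 39 or RSD 40 (range over single libraries −0.14 to 0.12). Myl9, Mcam, Acta2, Rgs5 and Cspg4 kept a negative sign in every fit that tested them. Depth limits Cnn1 and Tagln most.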
